A study of Mus musculus with 6 samples.

Results

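In mouse hepatocytes exposed to tumour necrosis factor alpha (TNFα), 7 genes stood on one side of the untreated cells after 2 hours and on the other side after 2 days. Adm, Adh7, Hopx and Reln were higher at 2 hours and lower at 2 days, and Ddit4l, Gse1 and Hyal2 were lower at 2 hours and higher at 2 days. They are 7 of the 28 genes, among 13438 tested, that passed the test in opposite directions at the 2 times, and all 16 array probes annotated to them were examined. The genes were chosen by their log2 differences from untreated cells at both times, on these same arrays, so their values are a description and carry no test. How the 7 were picked from the 28 is not recorded.

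The cells were primary hepatocytes, isolated from C57Bl/6J males and plated on collagen. Williams' E medium held 50 nM dexamethasone, 1 nM insulin and, as serum, 5% fetal calf serum. There were 3 groups of 2 arrays each: cells given 2 ng/mL recombinant murine TNFα for 2 days, cells given that dose for 2 hours, and unstimulated cells. Dexamethasone, a synthetic glucocorticoid that dampens inflammatory signalling, was present in all 3 groups. Neither the animals' age nor the time that the unstimulated cells had spent in culture is stated. Exposure and time in culture therefore cannot be told apart in either comparison with unstimulated cells. Nothing says that paired arrays stem from different mice or dishes. The p-values then reflect the spread of these arrays alone, and that spread may be technical.

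TNFα is an inflammatory cytokine that activates the transcription factors NF-κB and AP-1 through its receptors. Part of the response is fast and is then shut down by induced inhibitors, while longer exposure lowers many genes of differentiated liver function. The 7 genes have separate roles. Adm encodes adrenomedullin, a vasodilator peptide, and Adh7 an alcohol dehydrogenase that oxidises retinol and ethanol and is best known from the stomach and upper digestive tract. Hopx is a small homeodomain protein that does not bind DNA itself and acts through serum response factor and histone deacetylases. Reln encodes reelin, a secreted matrix glycoprotein known for guiding neurons in the brain, which stellate cells make in the liver. Ddit4l is a stress-regulated inhibitor of the growth kinase complex mTORC1, Gse1 a subunit of a histone demethylase and deacetylase corepressor complex, and Hyal2 a membrane-anchored hyaluronidase.

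All 7 genes were called at 2 hours, where 2.82% of all genes were, and all 7 at 2 days, where 12.7% were. A gene was called when its Benjamini-Hochberg adjusted p was under 0.05 by limma. Calls in opposite directions made up 0.208% of all genes, 0.141% higher first and 0.067% lower first. Since the genes were chosen for these calls, nothing is read from their number. The arrays of the 2 hour and untreated groups did not overlap for any of the 7, nor for 40.4% of all genes, and those of the 2 day and untreated groups did not overlap for any of the 7, nor for 49.6% of all genes. For 7.58% of all genes, as for these 7, both 2 hour arrays lay on one side of both untreated arrays and both 2 day arrays on the other. The changes were modest, from 1.3-fold to 1.66-fold at 2 hours and from 1.25-fold to 1.76-fold at 2 days. Their median size on the log2 scale was 0.47 at 2 hours and 0.54 at 2 days, beside 0.08 at 2 hours and 0.11 at 2 days over all genes tested, and 0.52 at 2 hours and 0.47 at 2 days over the genes called at that time. Between the 2 day and 2 hour groups all 7 were called, 3 higher and 4 lower at 2 days. Of all genes 15.3% were called there, 8.63% higher and 6.67% lower. The arrays of these groups overlapped for none of the 7, and did not overlap for 52.8% of all genes. This difference combines the 2 opposite changes that the 7 were chosen for, so its calls and lack of overlap add no support.

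**Figure D1:**
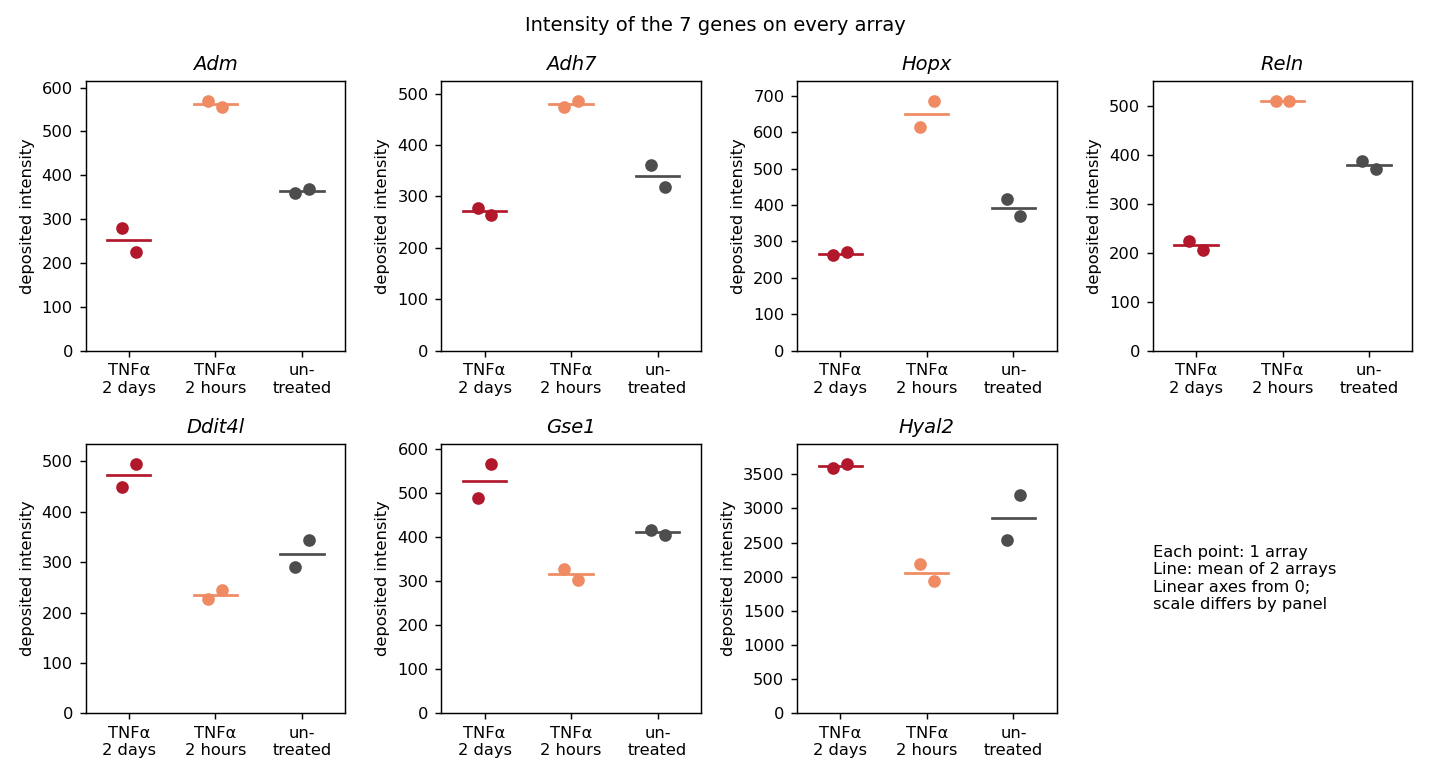
Deposited intensity (linear axes from 0, a separate scale in each panel) of the 7 genes on each array, with a line at the mean of the 2 arrays of a group. In the upper row the 2 hour arrays are the highest and the 2 day arrays the lowest, and in the lower row the order is turned round, with no overlap between groups in any panel.

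The 4 genes that were higher first are given in the order of their roles, the secreted products before the enzyme and the nuclear factor. Adm gave intensities of 280.3 and 225 on the 2 day arrays, 569.5 and 555.3 on the 2 hour arrays, and 360.7 and 368.1 on the untreated arrays. The 2 hour and untreated replicates lay close together and the 2 day replicates further apart. Adm was 1.54-fold higher at 2 hours (log2 0.63, SE 0.11) and fell by 0.54 on the log2 scale at 2 days (SE 0.11). Without 2 day replicate 2 the 2 day log2 difference was -0.38 and was not called. Here and below, leaving out an array leaves 1 array in its group and so lowers the precision. A call can then be lost at an equal or larger difference, and its loss alone does not show dependence on that array.

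Reln gave 224.9 and 206.3 on the 2 day arrays, 510.5 and 510.6 on the 2 hour arrays, and 387.1 and 371.8 on the untreated arrays. Its 3 groups stood apart, and its replicates differed little in any of them. The 2 hour rise was 1.35-fold (log2 0.43, SE 0.10) and the 2 day log2 difference was -0.82 (SE 0.10), a 1.76-fold fall. The 2 hour call was lost without untreated replicate 1 (0.46), untreated replicate 2 (0.40), or either 2 hour replicate (0.43 each), and the 2 day call was kept without any single array.

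In the liver Reln is known as a product of stellate cells, the vitamin A-storing cells beside the hepatocytes, so the markers of that cell type were set beside it. Of 12 stellate and fibroblast markers 6 passed the filter and were tested. Lrat, Hand2, Pdgfrb, Col3a1, Rgs5 and Lum did not, and Lrat, which defines the quiescent cells, gave 122 to 134 on the 2 day arrays, 126.6 to 130.7 on the 2 hour arrays and 126.6 to 136.2 on the untreated arrays, below every array's median. The summed intensity of the 6 was 3252 to 3949 on the 2 day arrays, 2261 to 2480 on the 2 hour arrays and 2353 to 2803 on the untreated arrays. Most of it was Acta2, an actin of contractile cells. The other 5 summed to 1043 to 1145 on the 2 day arrays, 1005 to 1017 on the 2 hour arrays and 990 to 1009 on the untreated arrays. Of these only Dcn (413.6 to 548.8) stood well above the array medians of 143.16 to 143.22. Des gave 149.2 to 176.7, and Col1a1, Col1a2 and Ngfr gave 128.4 to 157. Much of this sum is therefore background, and it says little about stellate cell content. Of the 6, only Acta2 was called, higher at 2 days (0.67), and it was no longer called without the first untreated array (0.45) or 2 day replicate 2 (0.43). Its 3 other passing probes gave 0.13, 0.17 and 0.42 at 2 days. The part that stellate cells had in the Reln signal was not tested.

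Adh7 gave 277.6 and 263.7 on the 2 day arrays, 473.7 and 485.5 on the 2 hour arrays, and 360.8 and 317.5 on the untreated arrays. The untreated replicates lay further apart than those of the other groups, and no groups overlapped. Adh7 was 1.42-fold higher at 2 hours (log2 0.50, SE 0.10) and fell by 0.32 on the log2 scale at 2 days (SE 0.10). The 2 hour call was lost without untreated replicate 2 (0.41) or 2 hour replicate 2 (0.48). The 2 day call was lost without untreated replicate 1 (-0.23), 2 day replicate 1 (-0.36) or 2 day replicate 2 (-0.29). It was also lost, at the same -0.32, when the 2 day and untreated groups were fitted without the spread of the 2 hour group.

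Hopx gave 263.8 and 269.8 on the 2 day arrays, 615.4 and 685.4 on the 2 hour arrays, and 415.3 and 368.9 on the untreated arrays. The 2 day arrays were alike and low, and the 2 hour arrays high and further apart. The 2 hour rise was 1.66-fold (log2 0.73, SE 0.10) and the 2 day log2 difference was -0.55 (SE 0.10). Hopx kept both calls without any single array, alone among the 7.

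The promoters of 3 of the genes that were higher first are shown because they hold letters of transcription factor motifs. RefSeq gives windows of 300 bases, 250 before and 50 after a transcript's start, for all 7 genes (10 windows, build GRCm38.p6). Of the 10, 4 are at the outer start of the gene, those of Adm, Reln and Ddit4l and 1 of Hopx. The other 6, among them the Adh7 and Hopx windows shown, are at transcript starts inside the gene. Both strands were searched for 8 motifs, whose letters are given with their shares after the sequences. Capitals mark the matches, and each E-box also holds the hypoxia core on both strands.
Adh7, chr3:138217523-138217822, + strand: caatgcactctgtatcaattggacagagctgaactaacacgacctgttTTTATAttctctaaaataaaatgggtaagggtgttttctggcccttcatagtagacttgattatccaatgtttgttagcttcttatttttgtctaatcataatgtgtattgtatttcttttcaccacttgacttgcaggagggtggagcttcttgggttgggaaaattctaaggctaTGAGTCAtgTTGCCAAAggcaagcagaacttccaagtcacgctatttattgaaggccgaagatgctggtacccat
Hopx, chr5:77095218-77095517, - strand: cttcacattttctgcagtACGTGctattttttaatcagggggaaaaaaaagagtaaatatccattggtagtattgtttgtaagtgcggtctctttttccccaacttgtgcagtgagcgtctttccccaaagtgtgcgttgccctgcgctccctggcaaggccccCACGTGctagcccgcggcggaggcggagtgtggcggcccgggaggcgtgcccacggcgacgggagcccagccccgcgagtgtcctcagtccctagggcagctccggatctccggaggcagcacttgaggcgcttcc
Reln, chr5:22344656-22344955, - strand: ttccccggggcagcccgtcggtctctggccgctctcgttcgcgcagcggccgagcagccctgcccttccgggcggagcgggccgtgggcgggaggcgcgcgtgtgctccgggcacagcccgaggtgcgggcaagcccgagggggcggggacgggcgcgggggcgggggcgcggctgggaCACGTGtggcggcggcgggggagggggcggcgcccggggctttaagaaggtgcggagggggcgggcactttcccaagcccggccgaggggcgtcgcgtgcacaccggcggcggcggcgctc

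Adh7 was the only one of the 7 with an AP-1 match (TGANTCA), from base -25 counted from that transcript start, and 7.8% of all 32851 windows hold one. It was also the only one with a C/EBP match (TTGCNNAA), from base -16, which 10.8% of windows hold. Hopx (from base -86) and Reln (from base -71) each had an E-box (CACGTG), which 7.2% of windows hold. The shorter hypoxia response core (ACGTG) was in 3 windows of these 2 genes and in 19.6% of all windows. TATA box letters (TATAAA) were in the windows of Adh7, from base -202 on the other strand, and Ddit4l, from base 36, and 13.6% of windows hold them. The NF-κB motif (GGNNTTTCC) was in 0 of the 10 windows and in 5.8% of all. The cyclic AMP response element (TGACGTCA) was in 0 of the 10 and in 1.8% of all. The core of a glucocorticoid response element (AGAACA) was in 0 of the 10 and in 19% of all. All 7 are tested genes, and over the windows of tested genes these shares differ. They were 6.2% for AP-1, 9.1% for C/EBP, 9.3% for the E-box and 23.6% for the hypoxia core. For the TATA box the share was 9.5%, for NF-κB 5.9%, for the cyclic AMP element 2.6% and for AGAACA 14.2%. GC content was 39.3% for Adh7, 80.7% for Reln and 59% for the Hopx window shown, beside a median of 52.7% over all windows. A match describes letters only, and none of the 7 genes has binding data here.

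Among the genes that were lower first, Hyal2 acts at the cell surface, Ddit4l in the cytosol and Gse1 in the nucleus. Hyal2 gave 3596 and 3653 on the 2 day arrays, 2184 and 1932 on the 2 hour arrays, and 2533 and 3195 on the untreated arrays. The untreated arrays lay far apart, yet between those of the other groups. The log2 difference was -0.47 at 2 hours (SE 0.11) and 0.35 at 2 days (SE 0.11, 1.27-fold). The 2 hour call was lost without untreated replicate 2 (-0.30), 2 hour replicate 1 (-0.56) or 2 hour replicate 2 (-0.38). The 2 day call was lost without untreated replicate 1 (0.18), 2 day replicate 1 (0.36) or 2 day replicate 2 (0.34). As for Adh7, it was also lost, at the same 0.35, without the spread of the 2 hour group.

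Ddit4l gave 449.9 and 495.1 on the 2 day arrays, 227 and 244.2 on the 2 hour arrays, and 290.3 and 343.3 on the untreated arrays. The 2 day arrays were high and the 2 hour arrays low, with no overlap. Its log2 difference was -0.42 at 2 hours (SE 0.11) and 0.58 at 2 days (SE 0.11), a 1.5-fold rise. The 2 hour call was lost without untreated replicate 2 (-0.30), 2 hour replicate 1 (-0.37) or 2 hour replicate 2 (-0.48), and the 2 day call was kept without any single array.

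Gse1 gave 490.7 and 567.5 on the 2 day arrays, 328.4 and 303.8 on the 2 hour arrays, and 417.5 and 405.7 on the untreated arrays. Its untreated arrays lay close together between the other groups. The log2 difference was -0.38 at 2 hours (SE 0.10) and 0.36 at 2 days (SE 0.10, 1.28-fold). The 2 hour call was lost when untreated replicate 1 (-0.36) or untreated replicate 2 (-0.40) was left out, as without 2 hour replicate 1 (-0.44) or 2 hour replicate 2 (-0.33). The 2 day call was lost without untreated replicate 1 (0.38), untreated replicate 2 (0.34) or 2 day replicate 2 (0.25).

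The deposited intensities still hold their background, which lowers the fold changes of dim genes. The used probes lay between the 75.6th and the 97.7th percentile of an array, and 6 of them, all but that of Hyal2, gave between 206.3 and 685.4 where array medians were 143.16 to 143.22. After a normexp background correction the log2 differences were larger, at 0.79 and -0.78 for Adm, 0.65 and -0.46 for Adh7, 0.90 and -0.77 for Hopx, 0.54 and -1.22 for Reln, -0.64 and 0.76 for Ddit4l, -0.51 and 0.45 for Gse1, and -0.49 and 0.36 for Hyal2, the 2 hour value before the 2 day value. With this correction 0 of the 7 were called at 2 hours and 3, Hopx, Reln and Ddit4l, at 2 days by limma. In that fit 95 genes of all were called at 2 hours, 81 higher and 14 lower, against 237 higher and 142 lower without it, and 655 at 2 days.

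Where a gene had several probes, only the used probe showed changes of this size. Adm, Ddit4l and Hyal2 have 1 probe each on the array, and the other 4 genes have 9 further probes, of which 4 passed the filter. These 9 gave intensities of 117.1 to 158.5, between the 3.7th and the 64.6th percentile, and 4 of them lay below the array median on all 6 arrays. The second Adh7 probe gave 149.8 and 149.5 at 2 days, 156.3 and 158.5 at 2 hours, and 145.4 and 146.5 in untreated cells. It was higher at 2 hours by 0.11 on the log2 scale, and also higher, by 0.04, at 2 days. The second Hopx probe differed from untreated by 0.06 at 2 hours and 0.11 at 2 days. The 4 further Reln probes, each annotated to a cDNA clone where the used probe is annotated to the reference mRNA, differed by -0.09 to 0.10 at 2 hours and by -0.15 to 0.14 at 2 days. Of the 3 further Gse1 probes, 2 were lower at 2 hours (-0.15 and -0.11) with 2 day differences of 0.00 and 0.03, and the other gave 0.15 and 0.13. In all, 2 of the 9 further probes had the signs of the used probe at both times. When the passing probes of a gene were averaged, the differences were 0.31 and -0.14 for Adh7, 0.26 and -0.34 for Reln, and -0.11 and 0.17 for Gse1, and these 3 genes were not called in opposite directions. Ddit4l and Hyal2, with 1 probe each and unchanged values, also lost that call. For them only the variance prior and the p-value adjustment, both taken over all genes, could differ from the main fit. In that fit 250 genes of all were called at 2 hours, against 379 in the main fit.

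**Figure D2:**
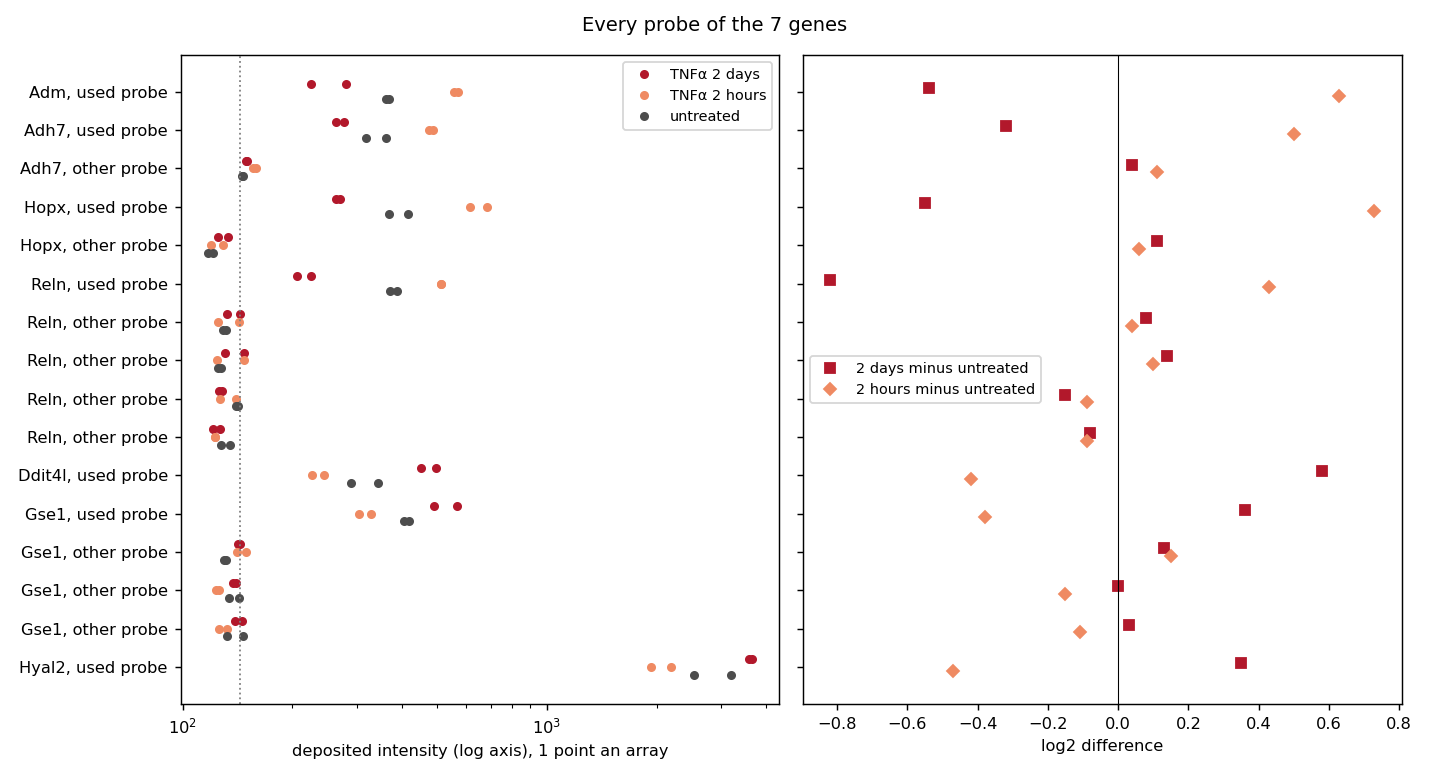
Left, deposited intensity (log axis) of all 16 probes of the 7 genes, 1 point an array, with the highest array median (143.22) dotted. Right, log2 differences from untreated cells at both times: the 7 used probes stand clear of the median and on both sides of 0, and the 9 other probes are dimmer, at 117.1 to 158.5, and lie near 0.

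Hopx and Reln, which moved in the same direction at both times, both lie on chromosome 5. Adh7 and Ddit4l both lie on chromosome 3, 570 kilobases apart, and moved in opposite directions at both times. These positions were noticed after the values were seen. Of the 17 annotated genes between Adh7 and Ddit4l, 6 were tested. None of these was called at 2 hours by limma, where 2.82% of all genes were. At 2 days, where 12.7% of all genes were called, 2 were: H2az1, a histone variant (0.48), and 1110002E22Rik (0.31), both higher. Mttp, the triglyceride transfer protein needed for lipoprotein assembly, gave 0.15 at 2 hours and -0.20 at 2 days and was not called at either time. Between the 2 times Mttp was called lower at 2 days (-0.35) and H2az1 higher (0.46), where 15.3% of all genes were called. With 6 genes nothing is read from these counts.

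Lists of genes that work with each of the 7 were then counted, with members left out. The call rate over all genes was 1.76% higher and 1.06% lower at 2 hours, and 6.74% higher and 5.92% lower at 2 days. The median log2 difference of all genes was 0.01 at 2 days and -0.01 at 2 hours. In cultured hepatocytes fewer cells of a type and less RNA per cell cannot be told apart. Of 10 hepatocyte markers 9 were tested, and their summed intensity was 62090 to 65850 on the 2 day arrays, 113800 to 114500 on the 2 hour arrays and 108900 to 116600 on the untreated arrays, with 6 called lower and 0 higher at 2 days by limma. The probe used for Alb, a defining marker, stayed near the array median. It gave 144.6 to 145.6 at 2 days, 150.7 to 157 at 2 hours and 145.1 to 174.5 in untreated cells. Apoa1 gave 21970 to 25180 at 2 days, 41070 to 42030 at 2 hours and 41420 to 41710 in untreated cells. Why the Alb probe was so dim was not tested, and its value is not read as the level of Alb RNA. Of 12 Kupffer cell and macrophage markers 9 were tested, with 3 higher at 2 days, the complement genes C1qa, C1qb and C1qc, and a summed intensity of 1720 to 1879 at 2 days, 1492 to 1520 at 2 hours and 1512 to 1579 in untreated cells, while Clec4f and Cd5l did not pass the filter. Each of the 9 gave at most 333.6 on any array, where array medians were 143.16 to 143.22, so much of that sum is background. Of 10 bile duct and mesothelial markers 5 were tested, and Sox9 alone was called, higher at both times (0.79 at 2 hours and 1.78 at 2 days). All 10 endothelial markers were tested, with 1 higher and 1 lower at 2 days, and 2 of 8 lymphocyte and neutrophil markers, with 0 called. What other cells added to the 7 genes' values was not tested.

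**Figure D3:**
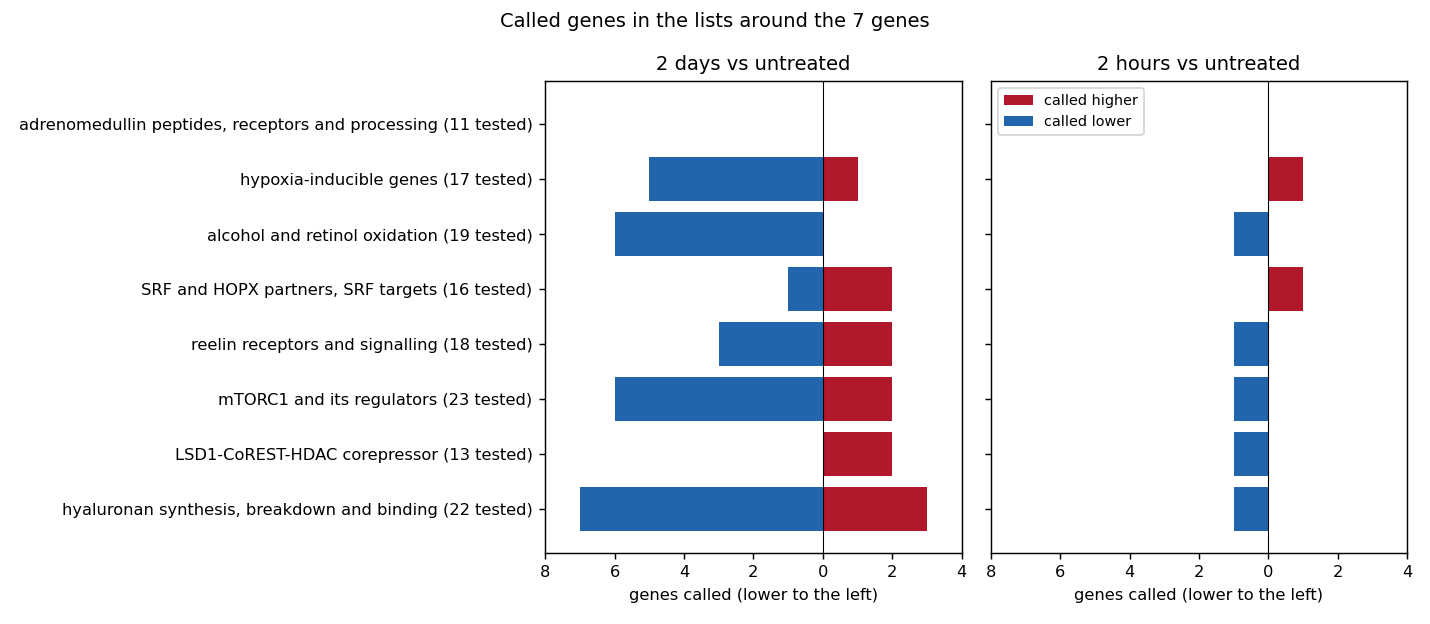
Number of genes called higher (right of 0) and lower (left of 0) by limma in 8 lists of genes related to the 7, at 2 days and at 2 hours against untreated cells. No list has over 1 call at 2 hours, and 7 of the 8 have from 2 to 10 at 2 days.

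Adrenomedullin acts through the calcitonin receptor-like receptor and its RAMP partners, and the enzyme Pam amidates it. Of 16 such genes 11 were tested, and limma called 0 at either time, while 0 had an unadjusted p below 0.05. Adm is also a well known hypoxia-inducible gene. Of 23 other such genes 17 were tested. At 2 hours 1 was called, Egln3, an oxygen-sensing prolyl hydroxylase, which was higher (0.90). At 2 days 5 were lower and 1 higher, with a median of -0.19. Vegfa, the main angiogenic growth factor, fell by 1.10 on the log2 scale and Ddit4, an mTORC1 inhibitor, by 0.71. The collagen hydroxylase subunit P4ha2 gave -0.55, a call lost without 2 day replicate 2 (-0.42). Egln3 was still higher at 2 days (0.52), but not without untreated replicate 1 (0.43) or 2 day replicate 1 (0.26), and 1 other passing Egln3 probe gave 0.39 at 2 hours and -0.05 at 2 days. Ankrd37, a hypoxia-inducible ankyrin repeat gene, had the signs of Adm (0.43 and -0.32) without being called at either time.

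Other alcohol and retinol enzymes did not show the Adh7 pattern by their calls. Of 28 genes 19 were tested, with 1 called lower and 0 higher at 2 hours and 6 lower and 0 higher at 2 days, where the median was -0.17. Rdh7, a retinol dehydrogenase, fell by 2.59 on the log2 scale at 2 days, and Adh1, the main liver alcohol dehydrogenase, by 1.55. At 2 hours Rdh7 gave -0.01 and Adh1 0.09. Adh4, a further alcohol dehydrogenase, gave -0.55 at 2 days. The retinol carrier Rbp4 gave -0.85, a call lost without untreated replicate 1 (-0.43). Cyp26a1, which breaks down retinoic acid, was lower at 2 hours (-0.60), but not without 2 hour replicate 2 (-0.55), and its other probe gave -0.09. Aldh1a7 had the signs of Adh7 (0.27 and -0.24) without being called at either time. It was called lower at 2 days than at 2 hours (-0.51), but not without 2 hour replicate 2 (-0.34).

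Hopx binds serum response factor and Hdac2. Of 18 partners and serum response factor targets 16 were tested, with 1 called higher at 2 hours and 2 higher and 1 lower at 2 days. Egr1, an immediate early factor, was higher at 2 hours (1.20), and gave -0.12 at 2 days. Fos, also an immediate early factor, fell by 0.62 at 2 days. Hdac2 was higher at 2 days (0.42), a call lost without untreated replicate 2 (0.37), and its other probe gave -0.01. Hdac2 is also a partner of Gse1. Of 16 genes of that corepressor complex and its recruiters 13 were tested, with 1 lower and 0 higher at 2 hours and 2 higher and 0 lower at 2 days. The demethylase Kdm1a was higher at 2 days (0.46), but not without untreated replicate 2 (0.44) or 2 day replicate 2 (0.42). Zmym3, a zinc finger subunit, was lower at 2 hours (-0.37), a call lost when untreated replicate 1 (-0.36) or untreated replicate 2 (-0.38) was left out, as without 2 hour replicate 1 (-0.35) or 2 hour replicate 2 (-0.39), and its 2 other probes gave 0.12 and 0.02.

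Reelin binds the receptors Vldlr and Lrp8. Of 20 genes of its pathway 18 were tested, with 1 lower and 0 higher at 2 hours and 2 higher and 3 lower at 2 days. Pik3r1, a subunit of phosphoinositide 3-kinase, was lower at 2 hours (-0.98) and at 2 days (-0.40). The later call was lost without untreated replicate 2 (-0.28) or 2 day replicate 1 (-0.38). Of its other passing probes, one gave -1.08 at 2 hours and -0.44 at 2 days, and another -0.21 and 0. Vldlr gave 0.14 at 2 hours and -0.49 at 2 days, a call lost without untreated replicate 2 (-0.38) or 2 day replicate 2 (-0.29). Its 4 other passing probes gave -0.74, -0.62, -0.10 and -0.04 at 2 days. The integrin subunit Itga3 was higher at 2 days (0.65). The kinase Src was also higher (0.42), but not without untreated replicate 2 (0.38) or 2 day replicate 2 (0.27), and its other probe that passed the filter gave -0.01.

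Of 24 genes of mTORC1 and its regulators 23 were tested, with 1 lower and 0 higher at 2 hours and 2 higher and 6 lower at 2 days. While Ddit4l was higher at 2 days, its relative Ddit4 was lower (-0.71), as were the inhibitors Sesn1 (-1.81) and Deptor (-0.72). The other Deptor probe gave -0.16, and the 2 other Sesn1 probes -0.28 and -1.63. Txnip, a thioredoxin-binding protein, was higher (0.68, and 0.60 on its other probe). Trib3, a stress-induced pseudokinase, was lower at 2 hours (-0.74, and -0.35 and -0.30 on its 2 other probes) and gave -0.28 at 2 days.

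Of 34 genes that make, break or bind hyaluronan 22 were tested, with 1 lower and 0 higher at 2 hours and 3 higher and 7 lower at 2 days. The lysosomal hyaluronidase Hyal1, which acts after Hyal2, was lower at both times (-0.44 at 2 hours and -0.75 at 2 days). Its 2 hour call was lost without untreated replicate 1 (-0.48), untreated replicate 2 (-0.41), or either 2 hour replicate (-0.44 each). Cd44, the hyaluronan receptor, rose by 1.68 at 2 days and gave 0.22 at 2 hours. Its 5 other passing probes were not used, and 1 of them gave 0.91 at 2 days and another 0.04. The inter-alpha-trypsin inhibitor chains Itih3 and Itih4, plasma proteins that bind hyaluronan, fell by 0.83 and 0.75 at 2 days.

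After the normexp correction several of these calls were lost by limma, those of Egln3, Cyp26a1, Trib3, Zmym3 and Hyal1 at 2 hours and of Acta2, Egln3, Fos, Hdac2, Kdm1a, P4ha2, Pik3r1, Rbp4, Src, Txnip and Vldlr at 2 days. The differences themselves did not shrink: Fos gave -1.08 and Txnip 0.72 at 2 days, and Egln3 0.97 and Cyp26a1 -0.87 at 2 hours.

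The genes nearest to each of the 7 in pattern were found from log2 values centred on each gene's mean over the 6 arrays, as the smallest root mean square difference among genes called in any comparison. They are a description over 6 arrays that share 3 groups. Dcaf17 was nearest to Adm (0.119, Pearson r 0.978), and Reln itself came next (0.133, r 0.967). Plod2 was nearest to Adh7 (0.081), Igfbp1 to Hopx (0.096), Nrg4 to Reln (0.07), Id1 to Ddit4l (0.066), Klhl24 to Gse1 (0.06) and Spon2 to Hyal2 (0.033, r 0.999). Igfbp1, a binding protein for insulin-like growth factors, was also the second nearest to Reln (0.081). Of these, Igfbp1 was called in opposite directions (0.53 at 2 hours and -0.73 at 2 days), and the others outside the 7 were called at 1 of the 2 times. The calls of Dcaf17, Plod2, Klhl24 and Spon2 were each lost without at least 1 array, as was the 2 hour call of Igfbp1 without 2 hour replicate 2 (0.44) and after normexp. The calls of Dcaf17, Plod2, Klhl24, Spon2 and Id1 were lost after normexp as well, while Nrg4 kept its 2 day call.

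**Figure D4:**
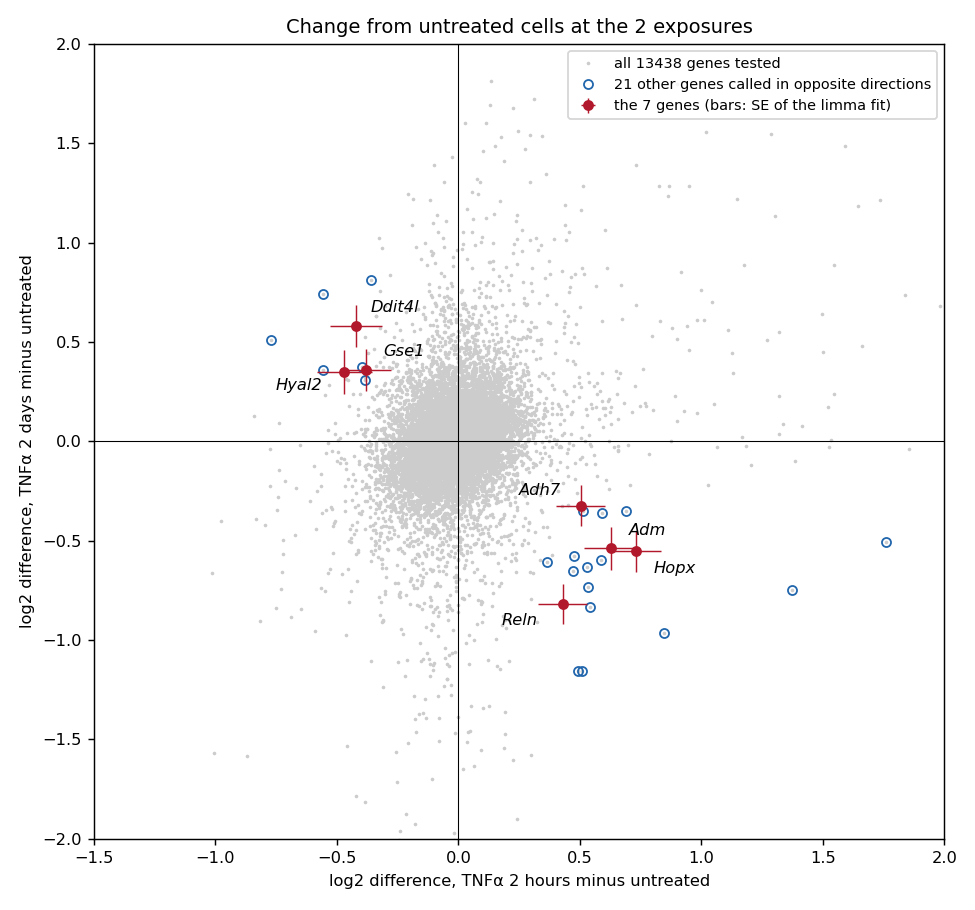
Log2 difference from untreated cells at 2 hours (x) and 2 days (y) for all 13438 genes tested, with the 7 genes in red (bars: SE of the limma fit) and the 21 other genes called in opposite directions as open circles; 29 genes fall outside the plotted range. Both axes subtract the same untreated arrays, and the 7 lie among the open circles and not beyond them.

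The 7 were not the extremes among the 28 genes called in opposite directions. When each gene was ranked by the smaller of its 2 changes, Hopx came at 5, Adm at 6, Reln at 16, Ddit4l at 17, Gse1 at 19, Hyal2 at 24 and Adh7 at 27. The 15 others that were higher first had 2 hour log2 differences of 0.36 to 1.76 and 2 day differences of -1.16 to -0.35. The 4 members had 0.43 to 0.73 and -0.82 to -0.32, and the 2 day difference of Adh7 was the smallest of these 19. They were Slc7a2, Nipal1, Cidec, Zfp36, Igfbp1, Abcg5, Cish, Retreg1, Mt2, Dgat2, Lcat, Crp, Slc25a25, Prdm2 and Pla2g12b. Slc7a2, a transporter of cationic amino acids, had the largest smaller change (0.85 and -0.96), with 442.2 and 430.7 at 2 days, 1421 and 1651 at 2 hours, and 1051 and 690.3 in untreated cells. Without untreated replicate 2 its 2 hour difference was 0.54. The 6 others that were lower first were Tsc22d1, Dusp4, Zfp362, Snn, Zfp219 and Zfp518b, with -0.77 to -0.36 at 2 hours and 0.31 to 0.81 at 2 days. Nearest outside the rule were Flrt3 (-0.46 and 0.32), Lpar6 (-0.39 and 0.52) and Ncoa4 (0.36 and -0.43), each called at 1 time only. After normexp, Nipal1 and Dusp4 were the 2 genes still called in opposite directions. Just inside the rule, Gse1, Slc25a25 and Snn had the weakest calls.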

How the data were processed

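RNA of 6 samples of mouse hepatocytes was measured on single-colour Illumina arrays with biotin-labelled cRNA, per the labels' protocols. The authors deposited a linear intensity for each of 45281 probes on every array. The 6 deposited intensity columns have nearly equal medians (143.16 to 143.22) and still hold their background. Which software made them is not stated.

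Gene symbols came from the platform's table (34885 probes with 1 symbol, 18 with several, 10378 not listed) and were updated from RefSeq (GRCm38.p6, used for names and neighbours). Intensities were taken to log2. A probe passed if at least 2 arrays exceeded their 50th percentile, and the passing probe with the highest mean stood for its gene. A limma 3.58.1 fit (R 4.3.3) of 3 group means to all 6 arrays gave the tests, adjusted over 13438 genes, with 3 residual and 21.22 prior degrees of freedom. Simulated data were used to check it. The small number of arrays limits the precision.

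The 7 genes, the lists and the tests were chosen with earlier results of these data known. The rule allowed naming up to 4 called genes per list and contrast, by size of change, the 3 genes nearest in pattern to each of the 7, every gene called in opposite directions and the 3 nearest outside. The alternatives were median centring, cyclic loess, normexp, an offset of 16, other filters, the mean of probes, other variance models, a replicate block and leaving out each array.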

Additional observations from a re-analysis of the deposited data

Results flagged for a closer look

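The difference from untreated cells ran in opposite directions at the 2 times for each of the 7 genes, in that every 2 hour array lay on one side of both untreated arrays and every 2 day array on the other. Arrays of the 2 day and 2 hour groups did not overlap for 52.8% of all genes, and 15.3% were called between the times. The log2 difference of 2 days minus 2 hours was -1.16 for Adm, -0.83 for Adh7, -1.28 for Hopx, -1.25 for Reln, 1.00 for Ddit4l, 0.74 for Gse1 and 0.82 for Hyal2. The limma fit called this difference for all 7, but they were chosen for it, so those calls are no independent test.

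Of the 137 genes tested in the 8 lists of related genes, 49 were called by limma between the 2 times, and the 31 of them that the naming rule allowed are given here. It was negative for Rdh7 (-2.57), Adh1 (-1.65), Sesn1 (-1.43), Egr1 (-1.32), Vegfa (-0.97), Rbp4 (-0.81), Ankrd37 (-0.75), Itih4 (-0.74), Itih3 (-0.67), Pdk1 (-0.66), Fos (-0.65), Deptor (-0.63), Vldlr (-0.63), Ddit4 (-0.56), P4ha2 (-0.55), Aldh1a7 (-0.51), Adh4 (-0.48) and Egln3 (-0.38). It was positive for Cd44 (1.45), Gusb (0.89), Acta2 (0.87), Txnip (0.72), Pik3r1 (0.58), Kdm1a (0.57), Hdac2 (0.55), Itga3 (0.53), Zmym3 (0.48), Cyp26a1 (0.47), Trib3 (0.46), Src (0.42) and Zmym2 (0.36). The calls of Aldh1a7, Cyp26a1, Egln3, Kdm1a, P4ha2, Rbp4, Src and Zmym2 were each lost without at least 1 array, and Egln3 moved to -0.12 without 2 day replicate 2. Without 2 hour replicate 1 Kdm1a gave 0.35 and P4ha2 -0.38, and without 2 hour replicate 2 Aldh1a7 gave -0.34 and Rbp4 -0.66. Without 2 day replicate 2 Cyp26a1 gave 0.28 and Src 0.28. Zmym2 gave 0.29 without 2 hour replicate 1 and 0.30 without 2 day replicate 1. Without 2 hour replicate 2 Cyp26a1 gave 0.43, Src 0.39 and Egln3 -0.45, and without 2 hour replicate 1 Egln3 gave -0.31. Of 36 other passing probes of these genes 33 had the sign of the used probe. The exceptions were both other Zmym3 probes (-0.24 and -0.07) and that of Src (-0.01). A shared sign did not mean a like size. The other passing probes of Cyp26a1 (0.07) and Hdac2 (0.06) were near 0. Those of Cd44 gave 0.08 to 0.85, Acta2 0.06 to 0.51, Trib3 0.06 to 0.30 and Vldlr -0.83 to -0.10.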

How the results depend on the processing

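The 7 genes' log2 differences were repeated 224 times (14 values under 16 alternatives). The sign turned in 0, and 31 moved by more than the within-group SD. Most of these repeats could not turn a sign. Other filters, variance models and the block left the differences as they were. Since the groups did not overlap, neither an offset nor leaving out an array could reverse them. The genes were also chosen for these signs, so the 0 is no test. All 7 genes kept opposite signs under every alternative, but the calls depended on the setting. After normexp 95 genes were called at 2 hours, 655 at 2 days and 810 between the times, and 2 in opposite directions, against 379, 1701, 2056 and 28. Averaging probes left 250 calls at 2 hours and 14 in opposite directions. Leaving out each array gave 187 to 384 calls at 2 hours, 1150 to 1536 at 2 days, 1270 to 2155 between the times, and 8 to 21 in opposite directions, of which 2 to 5 were members. The upper ends 384, 1536 and 2155 belong to contrasts that lost none of their own arrays: the lone array left in the third group adds no spread, so these fits equal those of the 2 groups alone. The opposite calls numbered 8 without 2 hour replicate 2, 12 without 2 hour replicate 1 and 11 without untreated replicate 2. The 2 hour split was 237 higher and 142 lower, against 81 and 14 after normexp, 156 and 53 without 2 hour replicate 1, and 139 and 48 without 2 hour replicate 2. Without untreated replicate 1 or 2, or either 2 hour array, 2 to 3 members kept both calls. Under the 16 alternatives Hopx was called in opposite directions in 15, Adm in 14, Ddit4l in 11, Reln in 10, Adh7 in 7, Gse1 in 6 and Hyal2 in 6. Of 384 repeats of list counts 63 moved by over 1.5 times, 56 of them lower.

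With the replicate number as a block 363 genes were called at 2 hours, 1638 at 2 days, 2007 between the times and 24 in opposite directions. The 7 members kept their opposite signs, which the block could not change. Gse1 was no longer called at 2 hours. The samples share only a number: deviations of same-numbered arrays correlated at -0.148 between the 2 hour and untreated groups, -0.0753 between 2 days and untreated, and 0.0364 between 2 days and 2 hours.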
